A study of Mus musculus with 2 samples.

Results

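Keratins are the intermediate filament proteins of epithelial cells, and 9 keratin genes were followed here across the cell states of a reprogramming culture: Krt8, Krt18, Krt19, Krt7, Krt5, Krt14, Krt17, Krt6a and Krt20. They are a list of names, picked with earlier results of these data known and with no threshold on a value, and 8 of them were among the 17408 genes of the deposited table. Krt5 was not analysed here. Mouse embryonic fibroblasts that carried STEMCCA, a doxycycline-inducible cassette of Pou5f1, Sox2, Klf4 and Myc, were kept in embryonic stem cell medium with serum, ascorbic acid and doxycycline, and all cells of the culture were profiled without sorting at day 16 by droplet 3′ RNA-seq. The 2 libraries form 1 group, and replicate 1 held 3109 cells and 54145377 unique molecular identifiers (UMIs), while replicate 2 held 3914 cells and 64654306 UMIs. The study describes a pair of independent STEMCCA mouse systems for these cells, as many systems as there are libraries, and the labels assign neither library to a system, so the libraries may differ by system. No untreated library and no sorted population was in the group, and every cell had been exposed to the factors. The origin of a library therefore cannot be told apart from any other difference between the libraries. No label says that they came from separate cultures. The p-values below rest on how far state differences vary between these 2 libraries. The test moderates a gene's own spread toward that of all genes tested, so they do not rest on that gene alone. The libraries shared 12 cell barcodes.

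Each keratin filament is built from heterodimers of a type I (acidic) and a type II (basic) keratin, so that neither type forms filaments on its own. Simple, single-layered epithelia use Krt8 (type II) with Krt18 and Krt19 (type I), and ducts and mesothelium add Krt7 (type II). Krt5 (type II) with Krt14 (type I) marks the basal layer of stratified epithelia, Krt6a (type II) and Krt17 (type I) are induced in stressed or appendage epithelium, and Krt20 (type I) marks intestinal and urothelial surfaces. Fibroblasts rely on vimentin instead, and the change from a mesenchymal to an epithelial form is a known early step of reprogramming.

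Cells were grouped into 15 states with the keratins and their anchoring genes left out of the clustering, so that no keratin defined a state. A state was named only where its markers allowed it. The pluripotent-like state (146 and 391 cells in replicates 1 and 2) raised 11 of 12 markers, the epithelial-like state (64 and 4 cells) 11 of 15, the mesothelial-like state (1 and 41 cells) 7 of 8, the fibroblast-like state (255 and 168 cells) 10 of 12 and the macrophage-like state (4 and 9 cells) 8 of 8. The epithelial-like state was thus almost entirely in replicate 1 and the mesothelial-like state almost entirely in replicate 2. The other states of note are called by their leading genes: Perp-led cells (leading genes Perp, Isg15 and Gsto1, 321 and 334 cells) and Tk1-led cells (2810417H13Rik, Tk1 and Tcf19, 299 and 327 cells). A level below is the mean over cells of UMIs per 10000 UMIs of the cell. Levels count 3′ ends and are compared between states for the same gene. Intervals are exact 95% intervals and cover counting error only.

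**Figure D1:**
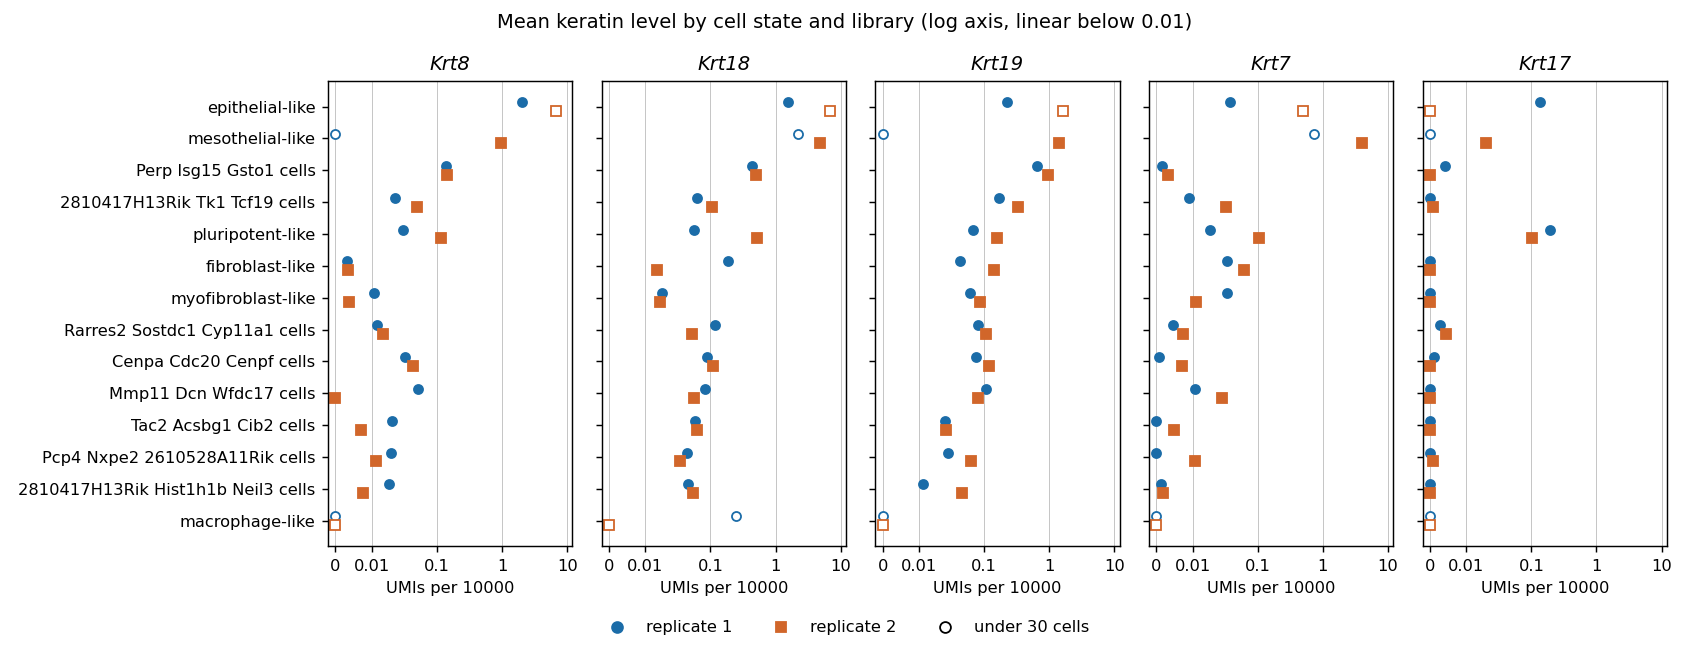
Mean level of 5 keratins (UMIs per 10000, log axis that is linear below 0.01) by cell state, with a point per library and open symbols for states of under 30 cells in that library. Krt8 peaked in epithelial-like cells, Krt7 in mesothelial-like cells, Krt19 in Perp-led cells among the states with 30 cells in both libraries, and Krt17 in pluripotent-like cells.

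Krt8 and Krt18, the pair that forms the basic filament of simple epithelia, were highest in the small epithelial-like and mesothelial-like states. In the epithelial-like cells of replicate 1, Krt8 stood at 2.01 and Krt18 at 1.53 UMIs per 10000, from 309 and 231 UMIs, and each gene had a UMI in 85.9% of the 64 cells. Against all other cells of that library, summed Krt8 was 56.6-fold (interval 47.1 to 68.0) as high and summed Krt18 14.0-fold (11.99 to 16.4) as high. This 2.06% of the cells held 61.4% of all Krt8 UMIs of the library but 28.3% of the Krt18 UMIs. The 4 epithelial-like cells of replicate 2 had higher levels still (6.73 for Krt8 and 6.77 for Krt18), but 48 of their 65 Krt18 UMIs lay in 1 cell, and without it the Krt18 level was 2.14. Epithelial-like cells passed 30 cells in replicate 1 only, so these folds have no replicate and no test was made.

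In mesothelial-like cells, those with markers of the lining of body cavities (Msln, Upk3b, Upk1b), the same partner Krt18 went with less Krt8. The 41 cells of replicate 2 had a Krt18 level of 4.75, with a summed level 25.3-fold (21.9 to 29.1) that of the other cells of the library, and a Krt8 level of 0.974 (18.0-fold, 13.2 to 24.1). Krt8 made up 18.0% (13.7 to 22.9) of the UMIs of the pair, against 57.2% (52.9 to 61.4) in the epithelial-like cells of replicate 1. These intervals do not overlap, but each state was measured in a different library. The few epithelial-like cells of replicate 2, the same library as the mesothelial-like cells, gave 50.4% (41.5 to 59.2), which lies above the mesothelial-like interval too. That share rests on 4 cells, and 1 of them held 26 of the 66 Krt8 and 48 of the 65 Krt18 UMIs, a dependence the interval does not cover. These mesothelial-like cells also carried fibroblast markers (11 of 12 detected, 35.5 per 10000 in sum) and lacked 9 of 15 epithelial markers, Cdh1 among them. The single mesothelial-like cell of replicate 1 had 3 Krt18 UMIs, 1 Krt7 UMI and none of Krt8.

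Krt8 and Krt18 lie side by side on chromosome 15, although they belong to different keratin types: Krt8 at 101996698 to 102004482 on the minus strand and Krt18 at 102028180 to 102032027 on the plus strand, 23697 bases apart (GRCm38, GENCODE M21). Across the 22 profiles of the 11 states with 30 cells in both libraries, their levels had a Pearson r of 0.87 on log2(level + 0.1). The 22 profiles share 2 libraries, and the value is a description. In the profile of pluripotent-like cells of replicate 2, a single cell held 60% of the Krt8 and 22.4% of the Krt18 UMIs. An r without that cell was not computed. Krt7, the third gene of this trio on chromosome 15 (101411043 to 101430313, plus strand), had r of 0.11 to Krt8 and 0.21 to Krt18 over these profiles. They leave out the epithelial-like and mesothelial-like states, and in mesothelial-like cells all 3 genes were high. Krt7 was also near the floor: its mean was at most 0.0622 in any of the 11 states, under the 0.1 added before the log. Replicate 1 held 64 Krt7 UMIs in all. The mean of Krt8 was under 0.1 too in every state but Perp-led cells. The low r of Krt7 therefore cannot be read as a firm contrast. The promoters of these 3 genes are shown because r over the 11 states was high for the first pair and low for the third gene. They are RefSeq sequences of GRCm38.p6, each from 250 bases before to 50 bases after the RefSeq start, on the strand of the gene. They lie at chr15:102004293-102004592 (minus), chr15:102027966-102028265 (plus) and chr15:101412153-101412452 (plus). These starts differ from the ends of the GENCODE genes given above, and the whole Krt7 window lies inside that gene. Positions are counted from the RefSeq start, and the motif matches described after the sequences are in capitals.
Krt8: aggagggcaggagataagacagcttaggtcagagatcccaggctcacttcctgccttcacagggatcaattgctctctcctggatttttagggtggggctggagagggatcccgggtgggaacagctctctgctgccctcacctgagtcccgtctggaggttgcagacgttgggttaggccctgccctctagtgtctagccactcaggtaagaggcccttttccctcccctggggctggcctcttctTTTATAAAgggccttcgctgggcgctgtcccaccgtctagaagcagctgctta
Krt18: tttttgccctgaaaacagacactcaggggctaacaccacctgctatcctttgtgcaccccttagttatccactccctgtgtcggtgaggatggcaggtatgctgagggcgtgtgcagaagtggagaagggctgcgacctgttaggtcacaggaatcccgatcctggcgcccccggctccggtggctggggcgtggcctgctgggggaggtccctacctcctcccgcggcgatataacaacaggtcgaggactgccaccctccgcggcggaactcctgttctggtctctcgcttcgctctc
Krt7: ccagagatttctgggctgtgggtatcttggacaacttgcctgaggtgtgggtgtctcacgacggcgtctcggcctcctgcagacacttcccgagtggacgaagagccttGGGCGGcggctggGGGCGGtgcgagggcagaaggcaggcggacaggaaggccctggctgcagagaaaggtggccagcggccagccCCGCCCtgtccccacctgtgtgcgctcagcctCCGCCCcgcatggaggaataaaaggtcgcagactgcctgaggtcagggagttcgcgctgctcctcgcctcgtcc
The motifs searched, on both strands, were the TATA box (TATAAA), the GC box (GGGCGG), the CCAAT box by its letters and the AP-1 motif (TGANTCA). The Krt8 window held the TATA box letters on both strands in overlapping matches that began 3 and 1 bases before the start. The Krt7 window held the GC box letters at 4 places, of which 2 were on the gene's strand and 2 on the other. The Krt18 window held no match to any of the 4 motifs. Among 32851 promoters of the same length, 13.6% held the TATA box letters, 35.7% the GC box, 37.4% the CCAAT box and 7.81% the AP-1 motif. With no match in the Krt18 window, Krt8 and Krt18 could share none, and inexact matches were not searched.

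Krt19, the smallest keratin and a type I partner without a tail domain, was also high in mesothelial-like cells of replicate 2, at 1.404 from 71 UMIs (summed level 6.01-fold that of other cells, 4.67 to 7.63), and 28 of these UMIs lay in 1 cell. The 4 epithelial-like cells of replicate 2 had a level of 1.60, with 16 of 18 UMIs in 1 cell, and those of replicate 1 had 0.226. Among the 11 states with 30 cells in both libraries it was highest in Perp-led cells, at 0.649 in replicate 1 and 0.962 in replicate 2 (0.805 ± 0.221, SD, n = 2), and next in Tk1-led cells, whose leading genes belong to DNA replication, at 0.172 and 0.334. Each of these stood apart from the next state in both libraries. The states that followed, pluripotent-like (0.0679 and 0.157) and Cenpa-led dividing cells (0.0747 and 0.121), overlapped. Perp-led cells were 10.3% and 8.53% of the cells and held 53.3% and 45.5% of the Krt19 UMIs of replicates 1 and 2. Their summed Krt19 was 7.78-fold (6.83 to 8.87) and 7.40-fold (6.70 to 8.17) that of the other cells of the library. This was also spread over many cells: 37.7% and 42.8% had a Krt19 UMI, and the richest cell of each library held 7.63% and 5.69% of the UMIs.

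Among the same 11 states, Perp-led cells also had the highest Krt8 (0.137 and 0.144), apart from the next state, pluripotent-like. Their Krt18 (0.442 and 0.508) overlapped that of pluripotent-like cells (0.0559 and 0.510). For Krt7 they ranked 10 of 11, with 1 UMI in 321 cells and 2 UMIs in 334 cells. The state was named neither epithelial-like nor mesothelial-like. Its 15 epithelial markers summed to 0.782 and 0.505 per 10000, against 14.9 in epithelial-like cells of replicate 1. Of the 15, 14 were detected in each library, but 0 were raised 2-fold over all other cells. Pluripotent-like cells also had 14 of 15 detected in each library, at 3.15 and 3.69 in sum. The fibroblast markers of Perp-led cells (12 of 12 detected) summed to 9.33 in both libraries. In Perp-led cells the mesothelial markers summed to 0.424 and 1.14, against 21.2 in mesothelial-like cells, with Bnc1, Muc16 and Gpm6a at 0 in both libraries. Msln, also a mesothelial marker, was among the leading genes of the Perp-led state. The part of these marker genes' sources in the keratin levels was not tested.

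**Figure D2:**
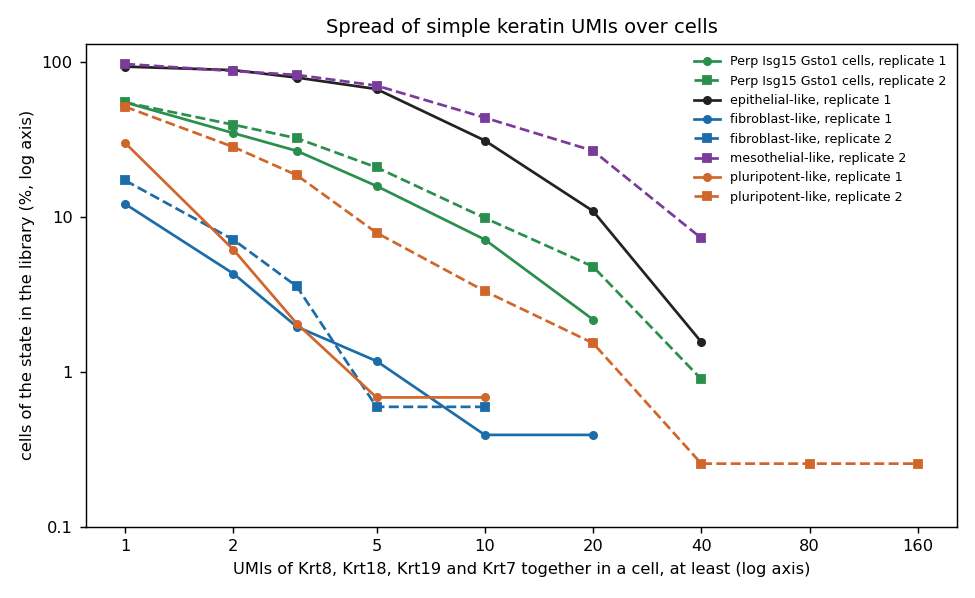
Share of the cells of a state in a library (percent, log axis) with at least a given number of UMIs of Krt8, Krt18, Krt19 and Krt7 together (log axis), for the state and library pairs with 30 cells. At 5 or more UMIs the curves stand at 67.2% for epithelial-like and 70.7% for mesothelial-like cells, 15.9% and 21.0% for Perp-led cells, and 0.685% and 7.93% for pluripotent-like cells in replicates 1 and 2. A single pluripotent-like cell of replicate 2 reaches 238 UMIs.

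Krt7, the type II keratin of ducts and mesothelium, had most of its UMIs of replicate 2 in mesothelial-like cells, a state with 1 cell in replicate 1. The 41 such cells of replicate 2 had a level of 4.01 and 228 UMIs, 54.7% (49.8 to 59.5) of the UMIs of the library from 1.05% of its cells. The summed level was 158-fold (130 to 193) that of the other cells. Epithelial-like cells of replicate 1 had 8 Krt7 UMIs in 64 cells, a level of 0.0378, and the 4 such cells of replicate 2 had 5 UMIs, a level of 0.489. Among the states with 30 cells in both libraries, Krt7 was highest in pluripotent-like (0.0182 and 0.106) and fibroblast-like cells (0.0334 and 0.0608), whose values overlapped. In fibroblast-like cells of replicate 2, 11 of 19 UMIs came from 1 cell.

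The balance of type II to type I keratins, counted as the share of type II UMIs among those of the 8 members (3 of type II and 5 of type I), differed between states. It was near even in the states with the most keratin: 51.7% (47.8 to 55.7) in epithelial-like cells of replicate 1, 46.1% (38.1 to 54.3) in those of replicate 2 and 47.3% (43.2 to 51.4) in mesothelial-like cells of replicate 2. The type II UMIs were mostly of Krt8 in the former (309 of 326 in replicate 1) and mostly of Krt7 in the latter (228 of 280). In Perp-led cells it was 11.6% (9.49 to 13.9) and 8.55% (7.03 to 10.3), and in Tk1-led cells 12.1% (8.09 to 17.3) and 14.7% (11.7 to 18.1). Type I UMIs, mostly of Krt19 and Krt18, thus exceeded type II UMIs in both libraries there. In pluripotent-like cells the share was 10.8% (6.31 to 17.0) and 21.9% (19.3 to 24.7). High shares also occurred where keratins were low, at 40% (28.9 to 52.0) in myofibroblast-like cells of replicate 1 but 12.3% (5.08 to 23.7) in replicate 2, and at 17.6% (10.2 to 27.4) and 34.5% (22.5 to 48.1) in fibroblast-like cells, from 57 to 85 UMIs each. Leaving out the cell with the most UMIs of the members gave 53.3%, 56.6% and 50.0% in the 3 epithelial-like and mesothelial-like groups, and between 8.76% and 20.2% in the Perp-led and pluripotent-like cells. UMI yield can differ between genes, so the share was compared between states and is not a ratio of proteins. Krt5, a type II keratin, was not counted, nor were the type I non-members Krt42 and Krt10. Krt42 had 355 and 464 UMIs in pluripotent-like cells, beside 132 and 755 type I UMIs of members. Krt10 had 60 UMIs in myofibroblast-like cells of replicate 1, and 76 and 30 in fibroblast-like cells. Counting these genes would lower the type II shares there. In epithelial-like cells of replicate 1 Krt10 had 14 UMIs and Krt42 had 0.

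**Figure D3:**
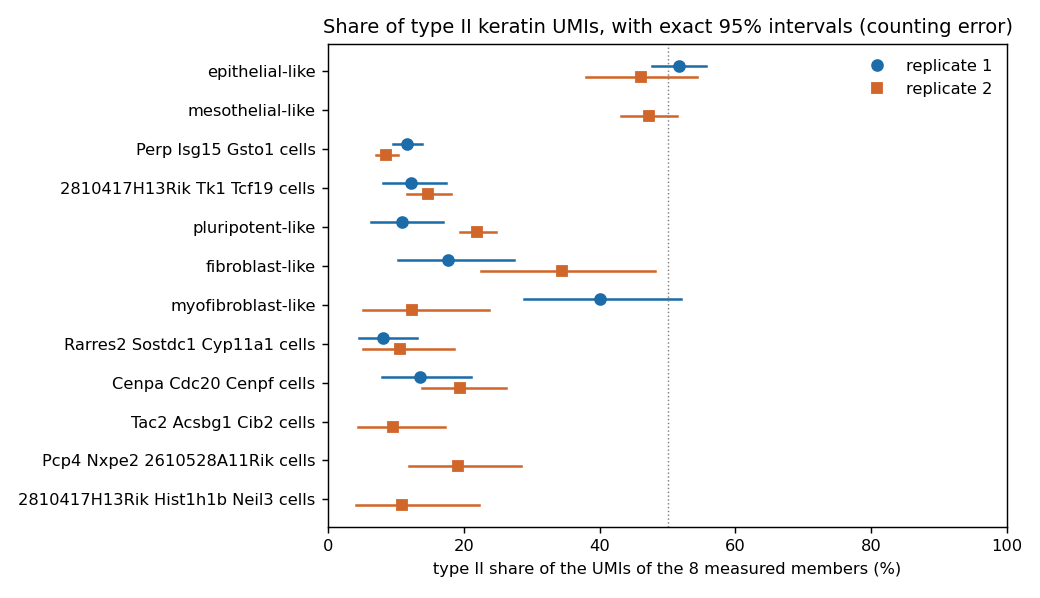
Type II share (percent) of the UMIs of the 8 measured members by state, with exact 95% intervals and a point per library with 50 or more such UMIs; the dotted line marks an even split. Epithelial-like and mesothelial-like cells lie between 46.1% and 51.7%, and Perp-led cells lie at 11.6% and 8.55%.

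Co-detection asks whether the partners sat in the same cells. Since deeper cells show more pairs, every cell was reduced by random draws to 3000 UMIs. At this depth Krt8 and Krt18 were found together in 23.4% (13.7 to 35.7) of epithelial-like cells of replicate 1 and 19.5% (8.82 to 34.9) of mesothelial-like cells of replicate 2. In Perp-led cells both were found in 1.56% (0.508 to 3.597) and 0.898% (0.186 to 2.60) of the cells, and in 0 of 146 and 3 of 391 pluripotent-like cells. At full depth the values were 78.1% and 43.9% in the first pair of states, whose median depths were 21861.5 and 11178 UMIs, and 5.61% and 5.09% in Perp-led cells, at 19880 and 17632 UMIs. Pluripotent-like cells, at 28768 and 26097 UMIs, had 0 and 3.84% at full depth. 

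Whether a cell with the partner was more likely to have Krt8 was read from the same reduced counts, as a description of cells within a library. In epithelial-like cells of replicate 1, Krt8 was found in 60% (38.7 to 78.9) of cells with Krt18 and 30.8% (17.0 to 47.6) of cells without. In mesothelial-like cells of replicate 2 it was found in 29.6% (13.7 to 50.2) of cells with Krt18 and 21.4% (4.66 to 50.8) of those without, which overlap widely. In Perp-led cells of replicate 1, Krt8 was found in 17.9% (6.06 to 36.9) of cells with Krt18 against 3.41% (1.65 to 6.19) of those without, and in replicate 2 in 10.3% (2.19 to 27.3) against 1.97% (0.725 to 4.23). Of the 28 and 29 Perp-led cells with Krt18, 23 and 26 had no Krt8. The intervals of epithelial-like and Perp-led cells overlapped too, and the Perp-led shares rest on 5 and 3 cells with both.

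Of the other pairs, Krt7 with Krt18 was found in 34.1% (20.1 to 50.6) and Krt7 with Krt19 in 12.2% (4.08 to 26.2) of mesothelial-like cells of replicate 2, and both pairs in 0 of 64 epithelial-like cells of replicate 1. At full depth the pairs were found in 68.3% and 29.3% of the mesothelial-like cells and in 4.69% and 3.12% (3 and 2 cells) of the epithelial-like cells. At 3000 UMIs, Krt7 was found in 51.9% (32.0 to 71.3) of mesothelial-like cells with Krt18 and 50% (23.0 to 77.0) of those without, intervals that overlap widely. The pair of Krt7 and Krt18 was added after the values were seen. Krt8 with Krt19 was found in 6.25% (1.73 to 15.2) of epithelial-like cells of replicate 1, where all 4 cells with Krt19 also had Krt8, and in 0.935% and 0.898% of Perp-led cells, where 44 of 47 and 57 of 60 cells with Krt19 had no Krt8. As background, none of the 4 and 9 macrophage-like cells had any UMI of Krt8, Krt18, Krt19 or Krt7 at 3000 UMIs, which allows up to 60.2% and 33.6%, and their median depths were 8664.5 and 8833 UMIs. At full depth they had 1 UMI of these genes, of Krt18. Fibroblast-like cells, a larger group that should have little keratin, had Krt8 with Krt18 in 0 of 255 and 0 of 168 cells, and Krt8 in 1 and 0 cells (0.392% and 0), at median depths of 13371 and 11298 UMIs. The share of Perp-led cells with Krt8 (4.67% and 2.69%) was above this in both libraries, with an interval that overlapped it in replicate 2 (1.24 to 5.05, against 0 to 2.17).

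**Figure D4:**
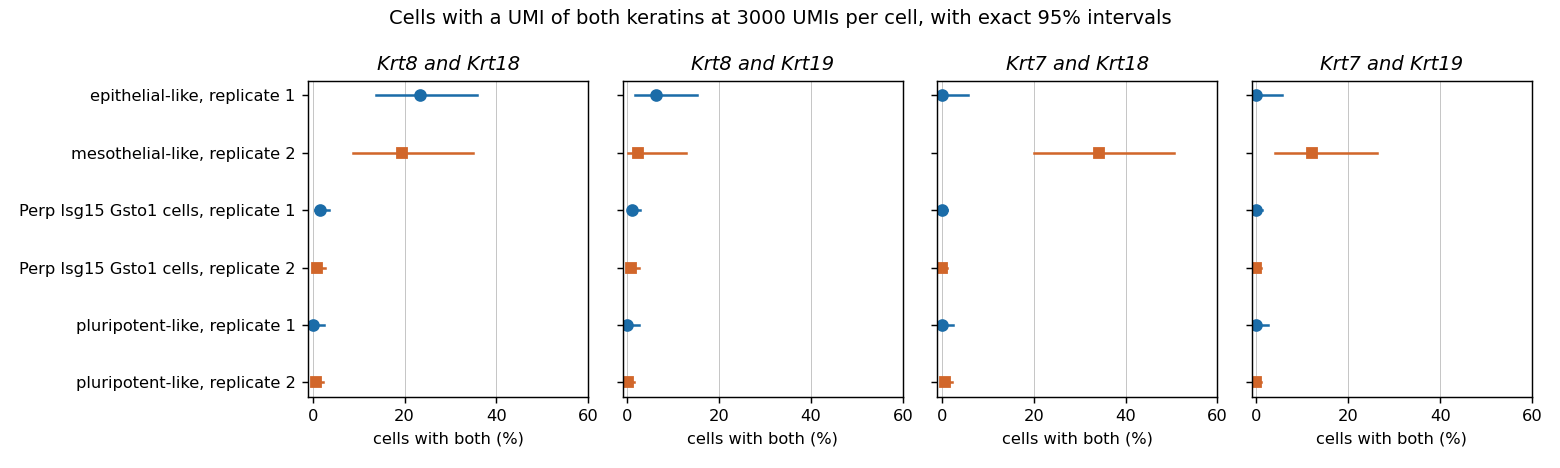
Percent of cells with a UMI of both keratins of a pair after thinning to 3000 UMIs per cell, with exact 95% intervals, for 4 states and the libraries where they had 30 cells. Krt8 with Krt18 stands at 23.4% and 19.5% in epithelial-like and mesothelial-like cells, Krt7 with Krt18 at 34.1% in mesothelial-like cells and 0 in epithelial-like cells, and all pairs drawn lie under 2% in Perp-led and pluripotent-like cells.

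The pluripotent-like cells were then set against all other cells, which asks how the keratins stand in cells that had reached the pluripotent state. Of the 8 members, 2 passed the filter on low values (a mean of 0.1 over all cells), and 1 of these 2, Krt19, passed the test (limma on log2(level + 0.1) with terms for state and library, Benjamini-Hochberg threshold 0.05). In this comparison 77.7% of all genes tested passed, so a call by itself sets no keratin apart. Krt19 stood at 0.0679 against 0.134 in replicate 1 and 0.157 against 0.198 in replicate 2, lower in both libraries, with a log2 fold change of -0.35 (SE 0.10, limma adjusted p = 0.0103). Pluripotent-like cells nevertheless ranked 3 of the 11 states for Krt19, and the other cells include the Perp-led cells with 53.3% and 45.5% of its UMIs. The log2 fold change was -0.72 with summed UMIs (limma adjusted p = 9.14e-05), -0.61 without the richest pluripotent-like cell (0.0013) and -0.60 with a pseudocount of 0.01 (0.0151). The call was lost with a pseudocount of 1 (limma adjusted p = 0.0772), without the filter on low values (0.0750) and without the deepest 5% of cells (log2 -0.17, adjusted p = 0.181). Krt18 stood at 0.0559 against 0.151 in replicate 1 and at 0.510 against 0.162 in replicate 2, so that the libraries went in opposite directions, and the log2 fold change of 0.27 (SE 0.33) did not pass (limma adjusted p = 0.484).

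Against fibroblast-like cells, the state with the markers of the starting cell type, neither of the 2 members tested passed, nor had an unadjusted limma p under 0.05, while 76.0% of all genes tested passed. Krt18 stood at 0.0559 against 0.185 in replicate 1 and 0.510 against 0.0151 in replicate 2 (log2 0.77, SE 0.54, limma adjusted p = 0.218), and 35 of the 45 Krt18 UMIs of fibroblast-like cells in replicate 1 came from 1 cell. Krt19 stood at 0.0679 against 0.0423 and at 0.157 against 0.143 (log2 0.16, SE 0.13, limma adjusted p = 0.269), with overlapping values. With summed UMIs Krt18 passed narrowly (limma adjusted p = 0.0496), and with finer clusters Krt19 did (log2 0.35, limma adjusted p = 0.0310).

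The simple keratins of pluripotent-like cells differed between the libraries. Krt18 had 24 UMIs in 146 cells of replicate 1, a summed level of 0.0567 (0.0364 to 0.0844), and 495 UMIs in 391 cells of replicate 2, 0.478 (0.437 to 0.522). Krt7 had 0.0166 (0.00666 to 0.0341) and 0.103 (0.0847 to 0.125), and Krt8 0.0213 (0.00973 to 0.0404) and 0.101 (0.0829 to 0.123). All 3 intervals were apart, and median depths were 28768 and 26097 UMIs. A single cell of replicate 2 had 238 UMIs of Krt8, Krt18, Krt19 and Krt7, against 28 in the next cell, and held 60% of the Krt8, 40.4% of the Krt19, 22.4% of the Krt18 and 2.80% of the Krt7 UMIs of the state. It had 19507 UMIs in all, below the median, and its Dppa5a level of 6.66 was the lowest of the 391 cells (median 49.7). Without the top cell of each gene, the Krt8 level of replicate 2 fell from 0.117 to 0.0341, near that of replicate 1 (0.0307), whereas Krt18 stayed at 0.365 and Krt7 at 0.102. Mesothelial markers, whose cells lay in replicate 2, summed to 0.0591 and 0.0579 per 10000 in the pluripotent-like cells of the 2 libraries, and their part in the difference was not tested. Without a replicate of each library, the difference itself has no test.

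Krt17, the type I keratin of stressed and appendage epithelium, had most of its UMIs in the pluripotent-like state. Of its UMIs, 73.7% (64.6 to 81.5) in replicate 1 and 95.5% (89.9 to 98.5) in replicate 2 lay there, from 4.70% and 9.99% of the cells. The levels were 0.194 and 0.103 (0.149 ± 0.0641, SD, n = 2), with 84 and 107 UMIs in 46 and 72 cells and at most 8 and 6 in a cell. Epithelial-like cells of replicate 1 had a Krt17 level of 0.134 (23 UMIs, 20.2% of those of the library), above that of pluripotent-like cells of replicate 2, and 8 of the UMIs lay in 1 cell. Among the 11 states with 30 cells in both libraries, the next after pluripotent-like had a mean of 0.00362, and the values were apart. Summed levels were 33.0-fold (21.6 to 52.0) and 112-fold (46.6 to 353) those of the other cells of the library. Krt17 did not pass the filter of the main comparison. Without that filter it passed against all other cells (log2 1.25, SE 0.16, limma adjusted p = 0.0202), as did 45.6% of 17408 genes, and it did not pass against fibroblast-like cells (log2 1.29, SE 0.19, limma adjusted p = 0.0669), where its level was 0 in both libraries and the fold depends on the pseudocount. Its usual type II partner Krt6a had no UMI in the pluripotent-like cells of either library.

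Krt42, no member but 1 of the 2 other keratins of the table above 0.1 in some state, was highest in the same state as Krt17 among the 11. It passed 0.1 through pluripotent-like cells only, and the next of the 11 states had a mean of 0.00428. Its peak there thus follows from the rule that named it and is not a separate result. It lies 1852 bases from Krt17 on chromosome 11 (Krt17 at 100256217 to 100261029 and Krt42 at 100262882 to 100269871, both on the minus strand). In pluripotent-like cells it had levels of 0.869 and 0.423, from 355 and 464 UMIs, with 7 and 13 UMIs in all other cells. Krt17 made up 19.1% (15.6 to 23.1) and 18.7% (15.6 to 22.2) of the UMIs of the 2 genes, the same within counting error, while both levels were higher in replicate 1. Within the state, cells with both were few at 3000 UMIs, 5 of 146 and 0 of 391 (at full depth 40 and 53). This pair, like Krt7 with Krt18, was added after the values were seen. Krt17 was found in 21.7% (7.46 to 43.7) of cells with Krt42 and 7.32% (3.40 to 13.4) of those without in replicate 1, and in 0 of 40 and 2.85% (1.37 to 5.18) in replicate 2. In the 64 epithelial-like cells of replicate 1, 23 Krt17 UMIs came with none of Krt42. The transcripts are alike (81.8% identity over 1109 bases), but in the last 500 bases of Krt17, where 3′ reads fall, no window of 50 bases was shared with Krt42. Krt14 is closer to Krt17 there, with 43 of 451 such windows shared, so UMIs of Krt14 and Krt17 are uncertain where the counting could split them.

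The remaining members were rare. Krt14, the basal-layer type I keratin, had 5 and 6 UMIs in all, of which the 5 of replicate 1 lay in 3 epithelial-like cells. Krt6a had 9 UMIs in replicate 1, all in 4 epithelial-like cells, and none in replicate 2. Of these 4 cells, 3 also had Krt17. Stratified markers other than keratins were in part present in epithelial-like cells of replicate 1 (4 of 9 detected, 5.97 per 10000), with Trp63, Ivl and Lor at 0. Krt20 had 13 and 17 UMIs over 9 states with at most 2 in a cell, and none in pluripotent-like cells, which allows no order of states. Krt10, the suprabasal type I keratin, was the other non-member above 0.1. Among the 11 states with 30 cells in both libraries it ranged from 0.0885 ± 0.0151 in pluripotent-like to 0.168 ± 0.0455 in fibroblast-like cells (SD, n = 2). In mesothelial-like cells of replicate 2, Krt10 stood lower, at 0.0385 from 2 UMIs. It fell in pluripotent-like against all other cells (log2 -0.26, SE 0.09, limma adjusted p = 0.0265), a call lost with a pseudocount of 1 (0.154) and without the deepest cells (0.0546).

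Over whole libraries, Krt7 had 64 UMIs in replicate 1 and 417 in replicate 2 (levels 0.0107 and 0.0648, a log2 ratio of 0.57 after adding 0.1 to each level). Krt18 and Krt19 were higher in replicate 2 (log2 ratios 0.27 and 0.35) and Krt8 lower (-0.16). With equal weight to each well-filled state, the Krt8 ratio turned to 0.04, that of Krt7 fell to 0.18 and those of Krt18 and Krt19 were 0.19 and 0.42, so the order of the genes depends on the weighting, and the epithelial-like and mesothelial-like states, which lay in different libraries, are left out by that weighting. Libraries have no replicate, so no test was made.

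The genes whose levels over the 22 profiles were most like each keratin, by Pearson r and leaving out keratins, were Psmc6 (0.83) and Psmd6 (0.80), both proteasome subunits, Zdhhc12 (0.78), Hagh (0.76) and Sfr1 (0.76) for Krt8. For Krt18 they were Gnpnat1 (0.78), Aasdhppt (0.75), Pgd (0.73), AW209491 (0.73) and Emc4 (0.73). For Krt19 they were Vma21 (0.82), Msln (0.81), the mesothelin of mesothelial cells, Sfr1 (0.79), Psmd8 (0.78) and Pgd (0.75). The profiles leave out the mesothelial-like state, and Msln was among the leading genes of Perp-led cells, the profiled state highest in Krt19. For Krt7 they were Emb (0.81), Anxa11 (0.81), Ube2o (0.80), Fem1b (0.79) and Trf (0.79). The lists of Krt8 and Krt19 shared Sfr1, and those of Krt18 and Krt19 shared Pgd. Krt7, near the floor in most of these profiles, shared no gene with the others.

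The genes that surround keratins in the cell were also set against all other cells. Of 16 other intermediate filament genes, all in the table, 5 passed the filter, of which 2 rose and 3 fell, beside 77.7% of all genes tested that passed in this comparison, a share so high that the counts of these lists say little of the lists themselves. The median log2 fold change was -1.18 against -0.16 over all genes tested. Vim, the vimentin of mesenchymal cells, fell by 3.47 on the log2 scale (1.35 against 15.9 and 1.21 against 14.6), Lmna, the lamin of differentiated nuclei, by 2.50 and Nes by 1.18. The B-type lamins Lmnb1 (log2 1.68) and Lmnb2 (0.64) rose. Of 22 genes of desmosomes, hemidesmosomes and other keratin anchors, 19 were in the table and 8 were tested: 3 rose (Itga6 0.94, Pkp4 0.63, Pkp2 0.43), 4 fell (Itgb4 -2.03, Plec -1.33, Dst -0.996, Perp -0.25) and Jup did not pass (-0.03), with a median of -0.14. The integrin partners of the hemidesmosome, Itga6 and Itgb4, thus moved in opposite directions, and the plakins that tie filaments to them, Plec and Dst, fell. Of 21 epithelial and mesenchymal transcription factors, 19 were in the table and 4 tested: Klf5 rose (log2 3.39, 1.68 against 0.0649 and 1.70 against 0.0771), and Zeb2 (-1.54), Twist1 (-1.18) and Zeb1 (-1.10), which repress epithelial genes, fell.

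Against fibroblast-like cells the same lists gave 2 higher and 3 lower of 5, 4 higher, 3 lower and 1 not past the threshold of 8, and 1 higher and 3 lower of 4, beside 76.0% of all genes tested that passed. Medians were -1.28, 0.40 and -1.69, beside -0.18 over all genes. Perp, which fell against all other cells, rose here (log2 0.52, limma adjusted p = 0.00562, against 0.0304 for the fall), with Perp-led cells no longer in the comparison. Klf5 rose by 3.25 and Vim fell by 3.91. The comparisons share the pluripotent-like profiles, so these values are not independent of those above.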

How the data were processed

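The cells were profiled by 10x 3′ RNA-seq. Per the submitters' processing notes and the study's methods, the authors used Cell Ranger (version 2.1.1) with mm10 and Seurat, and kept cells with over 1500 and under 6000 genes and under 9% mitochondrial RNA. The deposited values are the natural log of 1 plus UMIs per 10000. Whole UMIs were recovered for 100% of the values (tolerance 0.01), and 0 columns had no sample. No source used here gives a doublet step, and no doublet caller was run.

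States came from 2000 variable genes, 30 components, 15 neighbours and Leiden clustering at resolution 1 (scanpy 1.11.5, leidenalg 0.10.2), without sex-linked genes, the factors, 5 held-out pluripotency genes, keratins and listed genes. A name needed at least 3 markers and 50% of a class's markers raised 2-fold, with 1 of them among the 10 leading genes and no other class with more there. The named genes were the members, other keratins above 0.1 in a state, up to 4 genes per list and direction, and the 5 genes most alike. The members and lists were chosen with earlier results of these data known. Mean profiles per state and library were compared with limma (version 3.58.1, R 4.3.3) on log2(mean + 0.1), with 8.78 and 9.71 degrees of freedom. Most of these came from the spread pooled over all genes tested and not from the gene itself. In simulated data with 200 of 7131 genes changed 4-fold, 100% and 99% were recovered, and 3.38% and 2.46% of calls were false. In the data 77.7% and 76.0% of genes passed, and Krt19 changed by log2 -0.35. The simulated rates therefore do not carry over to the calls made here. Thinning to 3000 UMIs left out 0 cells. Sequences were compared with BLAST (version 2.17.0).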

Additional observations from a re-analysis of the deposited data

How the results depend on the processing

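Each fit compares states within the 2 libraries, with library as a term. The count of members past the threshold against all other cells went from 1 to 0 with a pseudocount of 1 and without the deepest cells, and stayed at 1 without the filter only because Krt17 passed (adjusted p = 0.0202) where Krt19 no longer did (adjusted p = 0.0750). Against fibroblast-like cells it went from 0 to 1 with summed UMIs and at resolution 2. The genes past the threshold without a filter were 7938 and 5090. In single libraries, which allow no test, the log2 fold change against all other cells ran from -0.69 to 1.22 for Krt18 and from -0.48 to -0.21 for Krt19, and against fibroblast-like cells from -0.87 to 2.41 and from 0.09 to 0.24. For Krt19 against fibroblast-like cells it was -0.065 with summed UMIs and -0.11 without the cell richest in simple keratins, a setting chosen after seeing the data. The comparison of epithelial-like or mesothelial-like cells with all others was not run, since no such class had 30 cells in both libraries.

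Levels of pluripotent-like cells differed so widely between libraries that no setting run moved them past this spread, which says nothing of their stability. Without the cell with most UMIs of the gene in each library, a setting chosen after seeing the data, their mean Krt8 went from 0.0737 to 0.0305 and Krt19 from 0.113 to 0.0580. The Krt8 level of Perp-led cells, whose libraries were close, moved to 0.148 (summed UMIs), 0.134 (resolution 0.5), 0.112 (resolution 2), 0.152 (keratins in the clustering), 0.124 (without the deepest cells) and 0.117 (without the cell with most UMIs, chosen after seeing the data). At resolution 2 their Krt18 was 0.348 and Krt19 0.496. With keratins in the clustering, epithelial-like Krt8 and Krt18 of replicate 1 were 1.54 and 1.19. Mesothelial-like Krt7 was 4.67 from summed UMIs, and Krt19 0.860 without its top cell. Co-detection moved with depth by construction. For Krt8 with Krt18 it was 78.12% at full depth, 7.812% at 1500 UMIs and 3.125% with at least 2 UMIs of each in epithelial-like cells, and 43.9%, 4.878% and 4.878% in mesothelial-like cells. For Krt7 in mesothelial-like cells it was 68.29%, 12.2% and 14.63% with Krt18, and 29.27%, 0 and 0 with Krt19. In Perp-led cells, as the mean of both libraries, it was 5.349%, 0.3055% and 0 for Krt8 with Krt18, and 6.247%, 0.1558% and 0 for Krt8 with Krt19 (0.8494% without the deepest cells). In pluripotent-like cells Krt8 with Krt18 was 1.918% at full depth. The log2 ratio of the libraries was 0.04071 for Krt8 and 0.1803 for Krt7 with equal weight to each state, and with a pseudocount of 1 it was -0.02462 for Krt8, 0.06176 for Krt18, 0.07876 for Krt19 and 0.07531 for Krt7.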

Other observations

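Within pluripotent-like cells, those of replicate 2 with a Krt18 UMI after reduction to 3000 UMIs (35 cells) were set beside those without (356 cells). The gene lists were chosen after values were seen, cells of 1 library are not replicates, and no test was made. The 35 cells include the cell richest in simple keratins, whose Dppa5a level was the lowest of the state. All 8 formative and primed pluripotency genes were higher beside Krt18, with a median log2 ratio of 0.75, but Lefty2 (0.418 against 0.395) stood at 0.347 without its top cell. Among them, Pou3f1 stood at 0.502 against 0.163, Dnmt3b, a DNA methyltransferase, at 1.10 against 0.485, and Fgf5 at 0.141 against 0.0219 UMIs per 10000. Lefty1, a Nodal inhibitor, stood at 2.88 against 0.384, and at 0.934 without its top cell. All 10 naive pluripotency genes were lower, with a median of -0.31, among them Nanog (0.680 against 1.19) and Tcl1 (0.505 against 0.822). Epithelial markers were higher for 11 of 15 (median 0.40). Lists without a clear direction were the primitive endoderm genes (5 in the table, 2 higher, 3 lower, median -0.05) and the trophoblast markers (9 in the table, 2 higher, 3 lower, median 0). Median depths were 29251 and 25889.5 UMIs, and the part of this difference was not tested. How many of all genes were higher or lower in this split was not counted, so the list counts have no background. In replicate 1, 3 cells had Krt18, too few for a comparison, and 2 of 8 formative and primed genes were higher beside it and 6 of 10 naive genes lower, while epithelial markers went the other way than in replicate 2, with 3 higher and 11 lower (median -0.12).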
